A study of Mus musculus with 6 samples.

Results

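The proteasome was examined as the set of genes whose symbol begins with Psma, Psmb, Psmc, Psmd, Psme, Psmf or Psmg followed by a number. The symbol rule matched 55 of the 52249 genes in the deposited table. Of the 55, 49 are proteasome subunits, activators, inhibitors or assembly chaperones, 5 are pseudogenes, and Psmc3ip is a meiotic recombination factor that shares only the first letters of its symbol with the ATPase Psmc3. All libraries came from mouse intestinal organoids, epithelial cultures grown from intestinal crypt cells. Every library carried a knockout of Apc, a tumour suppressor of the WNT pathway, so that no library with intact Apc was analysed here. The 3 control libraries (Apc-knockout) had no further modification by their labels, and the 3 OE-labelled libraries (Apc-knockout, IGF2BP3 overexpression) were also made to overexpress the RNA-binding protein IGF2BP3. The construct and promoter used for overexpression, the number of clones, and the strain and age of the mice are not given in the sources used here. RNA was read as short tags near the polyadenylated end of each transcript (3′ mRNA sequencing). Nothing in the labels says that the libraries came from separate cultures, so the p-values measure only the spread between these libraries, which may be technical.

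The proteasome is the barrel-shaped protease that degrades ubiquitin-tagged proteins in the cytosol and nucleus. Its core particle stacks rings of alpha subunits, which gate the entry pore, on rings of beta subunits, of which Psmb5, Psmb6 and Psmb7 carry the catalytic sites. The regulatory particle caps the core with a ring of ATPases that unfolds substrates, a base that holds ubiquitin receptors, and a lid that removes ubiquitin. Dedicated chaperones assemble both particles, and other activators can replace the cap. Each subunit is built into the complex in a fixed ratio to the others.

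Libraries held 2180116 to 2519917 counts, so that 3 counts, taken as the detection floor, corresponded to 1.18 to 1.41 CPM, counts scaled to a common library size. CPM values below are scaled with TMM factors, which correct for differences in composition between libraries. Igf2bp3 itself had 1, 0 and 0 counts in each group, by replicate. All of these lay under the floor and gave no check of the label, so directions below are those of the libraries labelled as overexpressing. Apc reads were present in both groups (80.4 ± 4.3 CPM for control, 62.0 ± 2.37 CPM for OE-labelled, SD, n = 3), and, since the deleted part of Apc is not given in the sources used here, the 3′ tags give no check of the knockout. The library names form a separate series for each group, so library series and genotype cannot be told apart. Among 10 markers of intestinal epithelium, 9 were expressed and Cdx1 was at 0. Of these, 5 rose and 1 fell (edgeR adjusted p below 0.05), against 16.5% higher and 12.7% lower of all 10687 tested genes. The summed level of the 10 markers was 4770 to 5070 CPM in control against 6170 to 6990 CPM in the OE-labelled group. The part of this level in the results below was not tested. Fibroblast and muscle markers summed to at most 1.88 CPM and endothelial markers to at most 1.84 CPM in any library, and 6 of 10 and 2 of 6 of them, respectively, were at 0 in every library. Leukocyte markers summed to 14.1 to 19.8 CPM in control against 18.6 to 23.5 CPM in the OE-labelled group. Most of this came from Cd68, a lysosomal membrane protein. In every library 5 of the 10 were at 0, among them Cd3e, Adgre1, Cd79a and Lyz2. Ptprc, Itgam and Laptm5 had few reads. Cd52 had 2, 1 and 1 counts in control against 7, 4 and 4 counts in the OE-labelled group, too few to test.

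The proteasome genes did not move as a block. Of the 44 genes with enough counts to test, 11 rose in OE-labelled libraries, Psme4 alone fell, and 32 did not pass the threshold (edgeR quasi-likelihood test, Benjamini-Hochberg adjusted p below 0.05 over all genes tested). In either direction 27.3% of the 44 passed, close to the background of 29.2% of all 10687 tested genes. These shares lay further apart in some other fits, given below. By direction, 25% of the 44 were higher and 2.27% lower, against 16.5% and 12.7% of all tested genes. At an edgeR adjusted p below 0.01, 9 of the 44 were higher (background 8.83%). A positive log2 fold change was found for 25 of the 44 (background 53.0%), with a median of 0.12 over the 44 and 0.04 over all tested genes. In other fits the median of the proteasome genes ran from -0.04 with an exonic length offset to 0.17 without TMM factors. The medians over all genes in those fits were 0.031 and 0.089. CPM ranges did not overlap, with OE-labelled libraries above control, for 14 of the 44 genes (31.8%, background 25.3%). They lay below control without overlap for 3 of the 44 (6.82%, background 20.5%). All 44 tested genes had at least 13 counts in every library, so none passed the filter on low counts through 1 group alone. In bulk RNA, fewer cells that express a gene and less RNA per cell cannot be told apart.

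**Figure D1:**
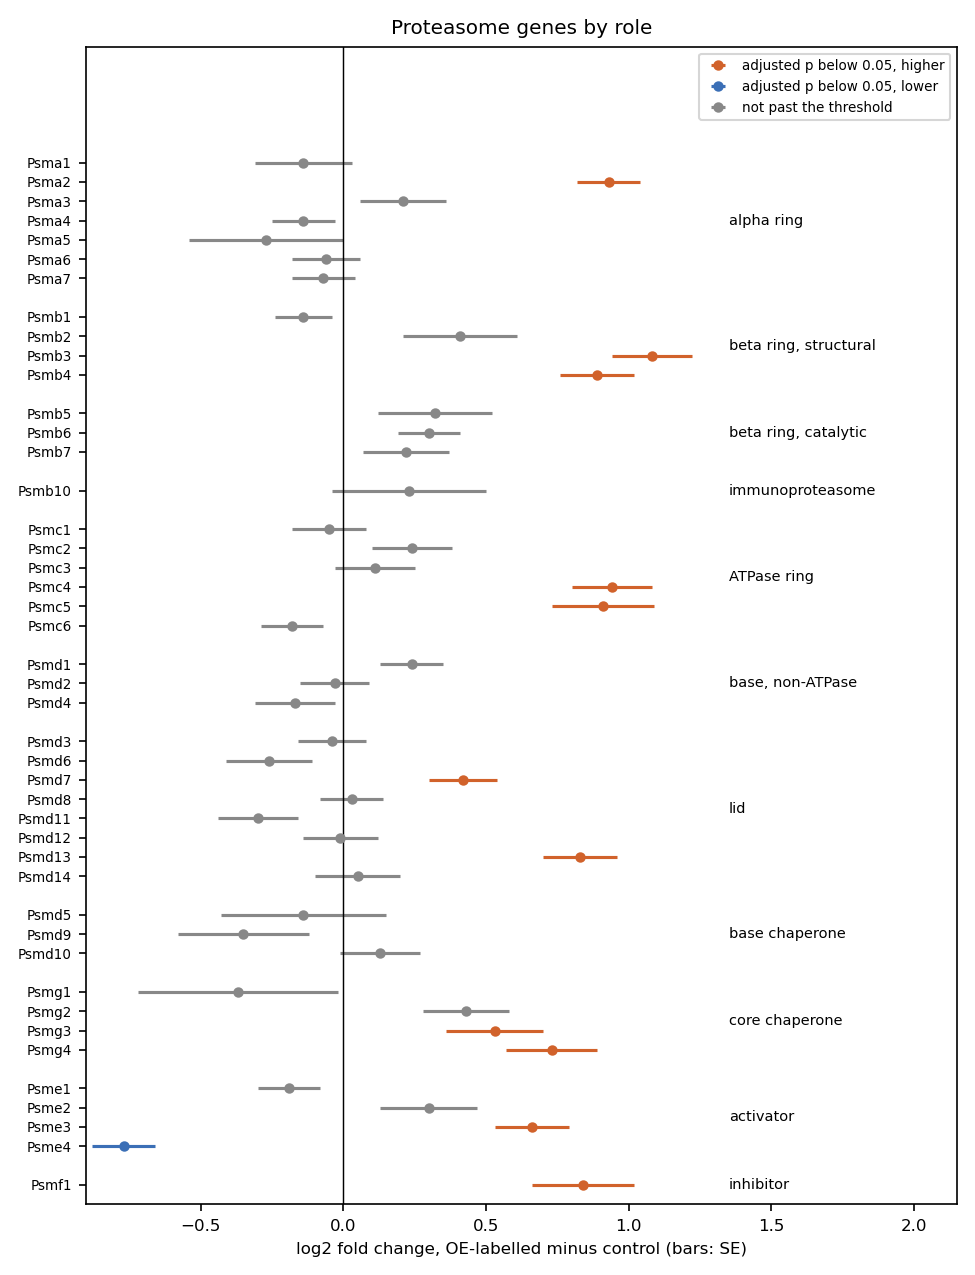
Log2 fold change (x axis, OE-labelled minus control, bars show the standard error) of the 44 tested proteasome genes (y axis), grouped by role. The 11 genes that rose lie between 0.42 and 1.08, Psme4 lies at -0.77, and the other 32 lie between -0.37 and 0.43.

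Promoters of 4 genes, chosen after their values were seen, are shown because they stand for the main outcomes: Psma2 and Psmb3, core subunits that rose, Psmb6, a catalytic subunit just short of the threshold, and Psme4, the gene that fell. The sequences are from RefSeq (GRCm38.p6), 5′ to 3′ on the gene's strand, from 140 bases before the transcription start to 10 bases after it. Of 7 motifs searched on both strands, capitals mark 3: CCAAT boxes (CCAAT), ETS factor cores (CCGGAAG) and antioxidant response element cores (TGACNNNGC, bound by factors of the NFE2L family).
Psma2 (chr13:14613102-14613251, plus strand): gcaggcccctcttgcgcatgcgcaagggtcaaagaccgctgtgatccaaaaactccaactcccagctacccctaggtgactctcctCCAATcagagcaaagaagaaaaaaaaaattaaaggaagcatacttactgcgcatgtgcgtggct
Psmb3 (chr11:97703294-97703443, plus strand): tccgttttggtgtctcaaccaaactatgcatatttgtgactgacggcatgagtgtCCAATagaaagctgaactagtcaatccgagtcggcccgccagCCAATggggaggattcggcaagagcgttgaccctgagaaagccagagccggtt
Psmb6 (chr11:70525217-70525366, plus strand): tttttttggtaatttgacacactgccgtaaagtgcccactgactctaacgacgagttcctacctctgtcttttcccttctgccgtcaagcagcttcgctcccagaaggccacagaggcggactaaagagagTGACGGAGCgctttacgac
Psme4 (chr11:30771635-30771784, plus strand): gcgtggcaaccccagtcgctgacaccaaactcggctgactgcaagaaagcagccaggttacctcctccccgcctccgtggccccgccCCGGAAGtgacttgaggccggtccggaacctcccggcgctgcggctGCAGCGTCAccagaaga
RefSeq windows of 300 bases, from 250 before the start to 50 after it, were found for 42 of the 55 genes by symbol. The ETS core was in a window of 15 of these 42 genes (35.7%), against 9.93% of all 27025 genes with a window. Among the 42 are Psmc3ip, which holds the ETS core and the CCAAT box, and genes with too few counts to test. The 27025 genes were taken whether or not they were expressed here, so the comparison is between unlike sets. The antioxidant response element core was in 6 of the 42 (14.3%), namely Psmb5, Psmb6, Psmc6, Psmd9, Psmd12 and Psme4, against 14% of all genes. It was in 0 of the 10 genes that rose and had a window, and in 5 of 26 that did not pass. The E-box (CACGTG, the site read by MYC and MAX) was in 4 of the 42 (9.52%), against 8.09% of all genes, and of these 4 only Psme3 rose. The CCAAT box was in 15 of the 42 (35.7%), against 41.1% of all genes. It was in 3 of the 10 genes that rose and had a window, and in 9 of 26 that did not pass. For the ETS core these counts were 3 of 10 and 10 of 26. The other motifs were rarer: the NRF1 palindrome (GCGCA followed by its reverse complement) was in 2 of the 42 (4.76%, against 1.07% of all genes), the YY1 core (AAGATGGC) in 3 (7.14%, against 3.19%) and the TATA box (TATAAA) in 4 (9.52%, against 15.7%). The matches are letters in these windows and not evidence of binding.

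In the alpha ring, 1 of 7 genes rose, against 16.5% of all tested genes. Psma2 (ENSMUSG00000015671, GRCm38 chromosome 13, 14613240 to 14674236, plus strand) was counted at 211, 227 and 207 CPM in the control libraries and at 453, 412 and 361 CPM in the OE-labelled libraries. The groups were well apart, with a log2 fold change of 0.93 (standard error 0.11, edgeR adjusted p = 0.000177). The other 6 alpha genes did not pass, with log2 fold changes from -0.27 for Psma5 to 0.21 for Psma3 (edgeR adjusted p of 0.308 or more). Psma2 made up 23.1% ± 1.54 of the ring's summed CPM in control but 37.3% ± 3.57 in the OE-labelled group (SD, n = 3). A 3′ tag is counted once per transcript, so these CPM shares were not divided by length. The largest alpha transcript in control, Psma7, made up 31.7% ± 1.32 and 25.7% ± 1.6 (SD, n = 3). Its own level was 295 ± 5.36 and 282 ± 33.7 CPM (SD, n = 3), with overlapping groups (log2 fold change -0.07, edgeR adjusted p = 0.691).

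In the beta ring, 2 of 7 genes rose (background 16.5%), and both encode structural subunits without a catalytic site. Psmb3 (ENSMUSG00000069744, plus strand of chromosome 11, 97703399 to 97713500) was counted at 87.6, 92.4 and 74.2 CPM in control against 214, 169 and 153 CPM in the OE-labelled group. This was the highest fold change among the tested proteasome genes, at 1.08 on the log2 scale (standard error 0.14, edgeR adjusted p = 0.000329). Near-identical 3′ ends exist in 5 other annotated genes, which together held 13 counts over the 6 libraries against 1868 for Psmb3, so reads shared with these copies make its level slightly uncertain. Psmb4 (ENSMUSG00000005779, minus strand of chromosome 3, 94884093 to 94886961) was counted at 192, 218 and 186 CPM in control against 412, 389 and 299 CPM in the OE-labelled group. The ranges did not overlap, and the log2 fold change was 0.89 (standard error 0.13, edgeR adjusted p = 0.000547). Psmb1, a structural neighbour in the same ring, was at 224 ± 8.42 and 204 ± 11.9 CPM (SD, n = 3), a log2 difference of -0.14 (standard error 0.1, edgeR adjusted p = 0.329). Its share of the ring's summed CPM was 30.0% ± 0.543 in control but 19.5% ± 0.792 in the OE-labelled group (SD, n = 3).

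None of the catalytic beta genes passed the threshold, although all 3 had positive log2 fold changes, from 0.22 to 0.32. Over 19 alternative fits these ran from 0.05 to 0.47 for Psmb5, 0.1 to 0.35 for Psmb6 and 0.08 to 0.45 for Psmb7. Psmb6, which encodes the caspase-like site, was counted at 112, 108 and 100 CPM in control against 141, 126 and 129 CPM in the OE-labelled group. Its ranges did not overlap, but it missed the threshold (log2 fold change 0.30, standard error 0.11, edgeR adjusted p = 0.0553). Psmb6 passed in 2 of the 19 alternatives, with adjusted p from 0.0272 to 0.584, the highest with the exonic length offset. Psmb5, which encodes the chymotrypsin-like site that proteasome inhibitor drugs bind, was at 25.3, 29.6 and 32.0 CPM in control against 32.4, 47.6 and 28.7 CPM in the OE-labelled group, with overlapping groups (edgeR adjusted p = 0.254). Psmb7, which encodes the trypsin-like site, was at 71.4, 70.8 and 74.2 CPM in control against 64.8, 87.7 and 99.8 CPM in the OE-labelled group (edgeR adjusted p = 0.3). Here OE-labelled replicate 1 lay below every control library and the other two above.

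The immunoproteasome subunits, which replace the catalytic beta subunits in cells exposed to interferon, were near or under the floor except for Psmb10. Psmb8 had 2, 0 and 0 counts in control against 0, 0 and 1 counts in the OE-labelled group, and no fold change was computed. Psmb9 had 4, 6 and 2 counts in control against 1, 1 and 5 counts in the OE-labelled group, too few to test. Psmb10 was at 9.68, 13.6 and 7.83 CPM in control against 14.2, 12.2 and 10.1 CPM in the OE-labelled group, with overlapping groups (log2 fold change 0.23, standard error 0.27, edgeR adjusted p = 0.542). The tissue-specific core genes Psma8, of testis, and Psmb11, of thymus, and all 5 pseudogenes were at 0 in every library. Psmc3ip had 2 to 3 counts in control against 4 to 6 counts in the OE-labelled group and was not tested.

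In the ATPase ring, which unfolds substrates and feeds them into the core, 2 of 6 genes rose (background 16.5%). Psmc4 (ENSMUSG00000030603, minus strand of chromosome 7, 28041707 to 28050101) was counted at 43.8, 54.4 and 51.6 CPM in control against 110, 84.2 and 93.4 CPM in the OE-labelled group, a log2 fold change of 0.94 (standard error 0.14, edgeR adjusted p = 0.000644). Psmc5 (ENSMUSG00000020708, plus strand of chromosome 11, 106256154 to 106263120) was counted at 60.8, 61.5 and 56.7 CPM in control against 141, 115 and 79.9 CPM in the OE-labelled group. Its OE-labelled values spread widely and all stood above control, with a log2 fold change of 0.91 (standard error 0.18, edgeR adjusted p = 0.00287). Both were the least abundant transcripts of the ring in control, at 5.86% ± 0.729 and 6.99% ± 0.419 of its summed CPM, and were at 10.1% ± 1.17 and 11.5% ± 1.67 in the OE-labelled group (SD, n = 3). The other 4 ATPase genes did not pass, with log2 fold changes from -0.18 to 0.24.

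**Figure D2:**
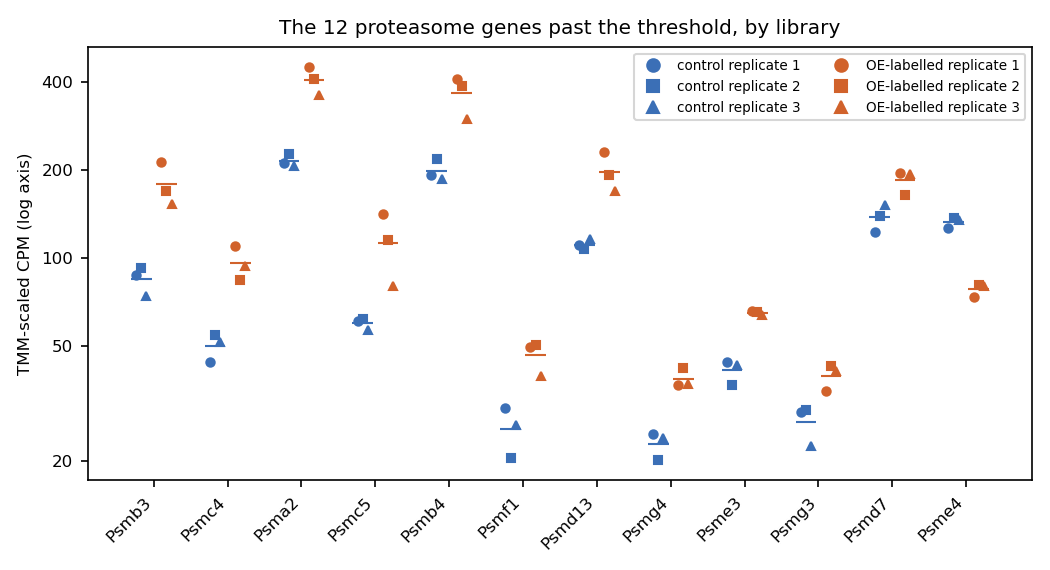
TMM-scaled CPM (y axis, log scale) of the 12 genes past the threshold (x axis, ordered by fold change) in each of the 6 libraries, with symbols for replicates and short lines for group means. The groups do not overlap for any of the 12 genes, which were selected by a test on these same values. OE-labelled replicate 3 is the lowest of its group for 7 of the 11 genes that rose.

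In the base, the scaffold genes Psmd1 and Psmd2 and the ubiquitin receptor gene Psmd4 did not pass. Psmd1 stood above control without overlap, at 192 ± 18.4 CPM in OE-labelled libraries (SD, n = 3), with a log2 fold change of 0.24 (standard error 0.11, edgeR adjusted p = 0.119). Psmd1 shares exons with Gm21972 on its own strand, so its counts are uncertain.

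In the lid, 2 of 8 genes rose (background 16.5%). Psmd13 (ENSMUSG00000025487, plus strand of chromosome 7, 140881968 to 140898643), a structural lid subunit, was counted at 111, 107 and 116 CPM in control against 231, 192 and 169 CPM in the OE-labelled group. The groups were far apart, with a log2 fold change of 0.83 (standard error 0.13, edgeR adjusted p = 0.000715). An exon of Sirt3 overlaps Psmd13 on the opposite strand, and whether counting used strand is not given in the sources used here. Psmd7 (ENSMUSG00000039067, minus strand of chromosome 8, 107580381 to 107588464) was at 123, 139 and 152 CPM in control against 196, 164 and 194 CPM in the OE-labelled group. Its difference was smaller, at 0.42 on the log2 scale (standard error 0.12, edgeR adjusted p = 0.0204), and it did not pass with DESeq2 (adjusted p = 0.062). It also did not pass without control replicate 1 (edgeR adjusted p = 0.12) or without control replicate 2 (edgeR adjusted p = 0.0799). With the exonic length offset its log2 fold change was 0.23 (edgeR adjusted p = 0.205). Across its alternatives the adjusted p ran from 0.0118 to 0.205. Psmd14, the deubiquitinase that pairs with Psmd7, was at 89.9 ± 18.4 CPM in OE-labelled libraries (SD, n = 3; edgeR adjusted p = 0.828). Psmd11 lay below control without overlap, at 109, 99.9 and 118 CPM against 73.3, 93.2 and 98.5 CPM, but did not pass (edgeR adjusted p = 0.11).

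The summed CPM of the beta ring was 748 ± 36.1 in control against 1044 ± 77.0 in the OE-labelled group (SD, n = 3), a ratio of 1.4. The ratio was 1.17 for the alpha ring, 1.12 for the ATPase ring, 1.11 for the lid and 0.989 for the 3 base genes. Most of the difference in the rings came from the genes that rose, which were picked by the same difference between the groups. The alpha sum went from 932 to 1095 CPM, a smaller step than that of Psma2 alone, from 215 to 409 CPM, and 2 of the 7 alpha genes had a positive log2 fold change (median -0.07). In the beta ring 6 of 7 were positive (median 0.32), and Psmb3 and Psmb4 accounted for most of the difference in the sum, with means from 84.7 to 179 CPM and from 199 to 367 CPM. All 49 proteasome genes together held 4754 to 4762 CPM in control against 5071 to 5632 CPM in the OE-labelled group. These sums are given as a description and were not tested.

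**Figure D3:**
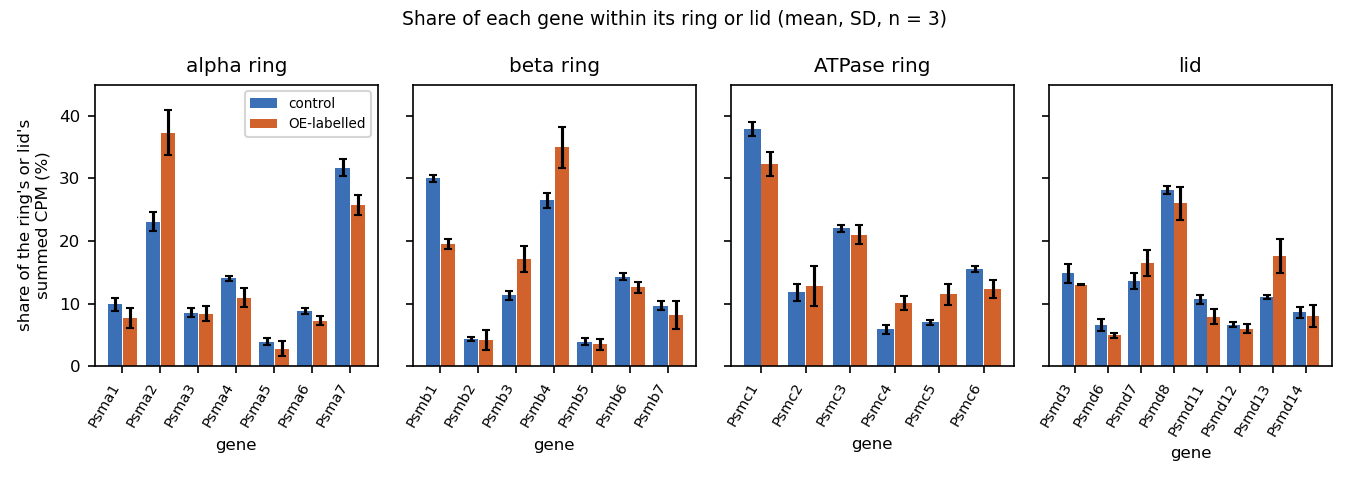
Share (y axis, percent) of each gene (x axis) in the summed CPM of its ring or lid, as bars of group means with SD (n = 3). Psma2, Psmb3, Psmb4, Psmc4, Psmc5 and Psmd13 hold larger shares in OE-labelled libraries, and Psmb1 goes from 30.0% to 19.5%.

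Among the assembly chaperones, Psmg3 and Psmg4, whose products form a pair that helps to build the alpha ring, both rose. Psmg4 (ENSMUSG00000071451, plus strand of chromosome 13, 34162964 to 34178173) was counted at 24.9, 20.2 and 24.0 CPM in control against 36.5, 41.7 and 36.8 CPM in the OE-labelled group, a log2 fold change of 0.73 (standard error 0.16, edgeR adjusted p = 0.00565). Psmg3 (ENSMUSG00000029551, minus strand of chromosome 5, 139823592 to 139826885) was at 29.5, 30.0 and 22.6 CPM in control against 34.8, 42.5 and 41.0 CPM in the OE-labelled group. Its log2 fold change of 0.53 (standard error 0.17, edgeR adjusted p = 0.034) is less certain, since Gm26938 shares exons with it on the same strand. The call was lost in 12 of 19 alternatives, among them DESeq2 (adjusted p = 0.143), the GC offset and the leaving out of any library except OE-labelled replicate 1, with adjusted p up to 0.155.

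The other core chaperone pair did not pass. Psmg2 was at 32.7, 39.9 and 35.0 CPM in control against 42.1, 49.5 and 53.3 CPM in the OE-labelled group, without overlap (log2 fold change 0.43, standard error 0.15, edgeR adjusted p = 0.0514). Its partner Psmg1 was at 12.9, 16.4 and 21.2 CPM in control against 5.27, 15.7 and 18.2 CPM in the OE-labelled group, with overlapping groups (edgeR adjusted p = 0.462). The base chaperone genes Psmd5, Psmd9 and Psmd10 had log2 fold changes from -0.35 to 0.13, and none passed.

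The activators moved in different directions. Psme4 (ENSMUSG00000040850, plus strand of chromosome 11, 30771726 to 30880361), which encodes a large single-chain activator known for degradation of acetylated histones, was counted at 127, 137 and 135 CPM in control against 73.3, 80.6 and 79.9 CPM in the OE-labelled group. Replicates were tight in both groups, and the log2 fold change was -0.77 (standard error 0.11, edgeR adjusted p = 0.000517). Psme3 (ENSMUSG00000078652, plus strand of chromosome 11, 101316213 to 101323537), which encodes the nuclear activator of ubiquitin-independent degradation, was at 43.8, 36.6 and 42.8 CPM in control against 65.6, 65.3 and 63.4 CPM in the OE-labelled group. It rose by 0.66 on the log2 scale (standard error 0.13, edgeR adjusted p = 0.00327).

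Psme1 and Psme2, whose products form the interferon-inducible activator, did not pass. Psme1 was at 118, 114 and 115 CPM in control against 107, 107 and 90.9 CPM in the OE-labelled group (log2 fold change -0.19, standard error 0.11, edgeR adjusted p = 0.229). With the GC or exonic length offset Psme1 passed as lower. Psme2 was at 27.5 ± 4.39 and 33.7 ± 2.73 CPM (SD, n = 3; edgeR adjusted p = 0.216), and its copy Psme2b had 2, 2 and 0 counts in control against 0, 0 and 1 counts in the OE-labelled group.

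Psmf1 (ENSMUSG00000032869, minus strand of chromosome 2, 151715812 to 151744186) encodes a protein first described as a proteasome inhibitor. It was counted at 30.4, 20.6 and 26.7 CPM in control against 49.4, 50.3 and 39.3 CPM in the OE-labelled group, with every OE-labelled value above control. The log2 fold change was 0.84 (standard error 0.18, edgeR adjusted p = 0.0045).

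**Figure D4:**
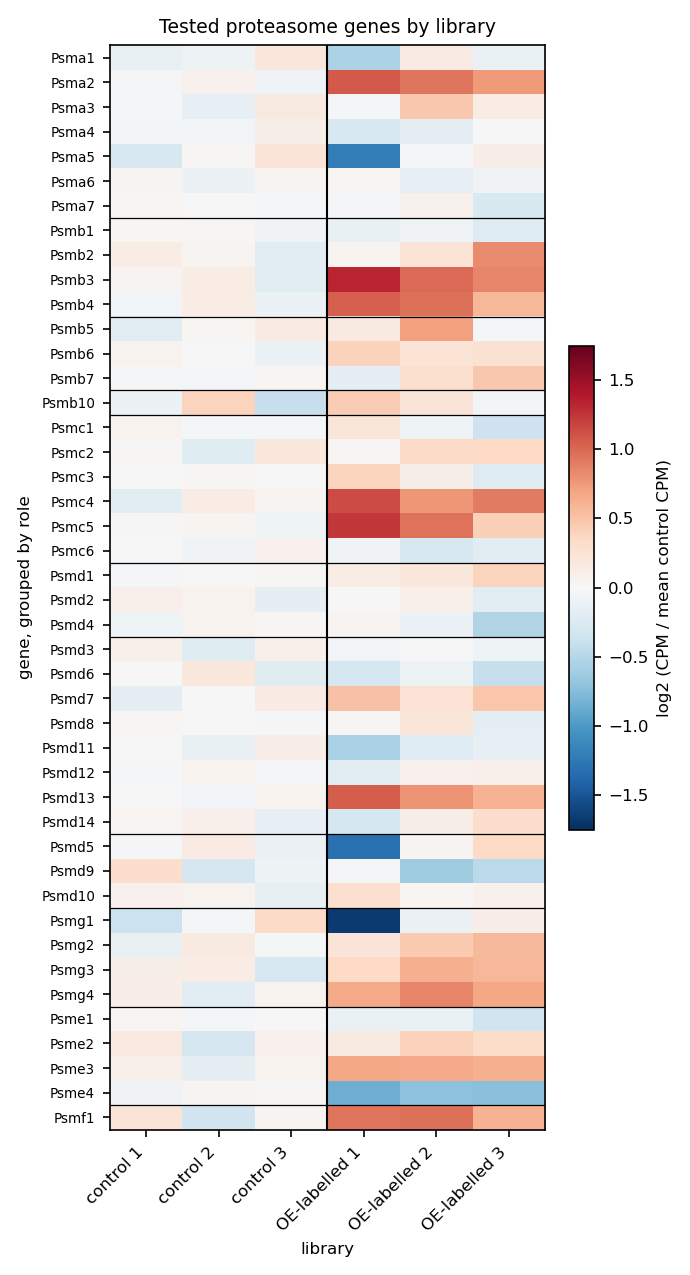
Colour shows log2 of CPM over the mean control CPM for the 44 tested genes (y axis, grouped by role, lines between roles) in each of the 6 libraries (x axis). Rising genes are red in all 3 OE-labelled libraries, and Psma5, Psmd5 and Psmg1 are darkest blue in OE-labelled replicate 1.

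Replicate spread was wider in the OE-labelled group. Over the 44 genes, the coefficient of variation had a median of 8.65% for control replicates and 13.0% for OE-labelled replicates. Over all genes, the variance between pairs of libraries was 1.2 to 1.37 times counting noise within control and 4.71 to 9.04 times within the OE-labelled group. OE-labelled replicate 1 was the highest of its group for 8 of the 11 genes that rose, and replicate 3 was the lowest for 7 of them. Over all 44 genes the order was not 1-sided: replicate 1 was the highest for 18 and the lowest for 18, and replicate 3 was the lowest for 19 and the highest for 12. Replicate 1 stood apart downward for some genes. Psmd5 was at 17.4 CPM there, against 44.4 and 55.0 CPM in replicates 2 and 3 and 39.6 to 47.4 CPM in control. Psma5 was at 15.8 CPM, against 35.8 and 39.7 CPM in the other OE-labelled libraries. Sem1, a small subunit of the lid that the symbol rule does not match, was at 51.5 CPM, against 125 and 152 CPM. Without OE-labelled replicate 1, 14 proteasome genes were higher and 4 lower, among them all 12 of the full comparison. This was 40.9% of the 44, against 30.8% of all genes tested in that fit. Without OE-labelled replicate 3, 11 were higher and 2 lower (29.5%, against 32.6% of all genes), and Psmg3 was lost. The genes gained were Psmb2, Psmb7, Psmc6, Psmd4, Psmd9 and Psmg2 in the first case and Psmb6 and Psmd11 in the second.

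Sequence composition also moved with the group across the transcriptome. Spearman's rho between log2 fold change and GC content was 0.37 over 10679 genes and 0.2 over the 44 proteasome genes; genes are not independent replicates. For exonic length it was -0.3 over 10682 genes and -0.25 over the 44. The 11 genes that rose had a median GC content of 50.4% (39.4% to 55.1%), and the 32 that did not pass had 49.2% (37.0% to 57.4%). With a per-library GC offset, 15 proteasome genes were higher and 2 lower, and 11 of the original 12 were among them, Psmg3 being lost. In that fit 38.6% of the 44 passed in either direction against 23.2% of all 10679 genes, so the share near background in the full comparison did not hold under this offset. Psma3, Psmb7, Psmc2, Psmd1 and Psmg2 then passed as higher and Psme1 as lower. Psmc2 shares a near-identical 3′ end with Isoc2a, which held 198 counts against 1539 for Psmc2 over the 6 libraries, so its level is uncertain.

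Genes that work with the proteasome were taken from lists written from general knowledge. Of 17 tested subunits, assembly factors and shuttles outside the symbol rule, 2 rose, 1 fell and 14 did not pass, with a median log2 fold change of 0.15. Over all 10687 tested genes, 16.5% were higher and 12.7% lower, the background for each list. Pomp, the chaperone for beta ring assembly, was counted at 253, 244 and 207 CPM in control against 421, 420 and 268 CPM in the OE-labelled group (log2 fold change 0.65, standard error 0.16, edgeR adjusted p = 0.00911). OE-labelled replicate 3 lay close to control there, and the call was lost without control replicate 3 or OE-labelled replicate 2 (edgeR adjusted p up to 0.0673). Zfand5, a proteasome-binding activator, rose by 0.30 (standard error 0.1, edgeR adjusted p = 0.0343), a call lost in 10 of 19 alternatives, including DESeq2 (adjusted p = 0.136, range 0.00225 to 0.16). Ecpas, a scaffold that binds both particles, fell by 0.49 on the log2 scale (standard error 0.14, edgeR adjusted p = 0.0201), a call lost in 6 of 19 alternatives (edgeR adjusted p up to 0.172).

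Among 12 genes for the transcription factors of proteasome genes and their processing, 3 rose, 3 fell and 6 did not pass. The background was 16.5% higher and 12.7% lower. Nfe2l1, which encodes the factor that raises proteasome gene transcription when proteasome activity is low, was at 178, 175 and 171 CPM in control against 106, 144 and 145 CPM in the OE-labelled group. It lay below control in all 3 libraries (log2 fold change -0.41, standard error 0.13, edgeR adjusted p = 0.0317), a call lost in 4 of 19 alternatives, which included leaving out any control library (edgeR adjusted p up to 0.111). Mafg, a small partner of this factor, fell by 0.42 on the log2 scale (standard error 0.11, edgeR adjusted p = 0.0138), and was lost when any control library was left out (edgeR adjusted p up to 0.0827). Bach1, a repressor that binds the same elements, was outside the 5 genes with the smallest p and is named to complete the 3 that fell (log2 fold change -0.65, standard error 0.21, edgeR adjusted p = 0.0335). Alternatives were not tabulated for Bach1, so how far its call depends on the fit is not known here. Mafg shares exons with Sirt7 on the same strand. Maff, another small partner, rose by 0.55 (standard error 0.12, edgeR adjusted p = 0.00563), but not with the GC offset (edgeR adjusted p up to 0.12). Keap1, the adaptor that directs NFE2L2 to degradation, rose by 0.80 (standard error 0.13, edgeR adjusted p = 0.00111), and Vcp, the unfoldase that delivers proteins to the proteasome, by 0.48 (standard error 0.11, edgeR adjusted p = 0.0066). Both passed in all 19 alternatives.

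Of 9 ubiquitin and ubiquitin-delivery genes, 3 rose, 0 fell and 6 did not pass at an edgeR adjusted p below 0.05. Background shares were 16.5% higher and 12.7% lower. Ubb rose by 0.43 (standard error 0.11, edgeR adjusted p = 0.0101), a call lost in 6 of 19 alternatives (edgeR adjusted p up to 0.192). Uba1, the main ubiquitin-activating enzyme, rose by 0.36 (standard error 0.11, edgeR adjusted p = 0.0295), a call lost in 13 of 19, including DESeq2 (adjusted p = 0.0954, range 0.00332 to 0.206).

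Of 11 tested genes of interferon response and antigen presentation, which act with the immunoproteasome, 1 rose, 2 fell and 8 did not pass. Background shares were 16.5% higher and 12.7% lower. Tapbp, a peptide-loading chaperone, rose by 0.74 (standard error 0.13, edgeR adjusted p = 0.00161), although Zbtb22 shares exons with it on the same strand. B2m, the light chain of MHC class I, was at 401, 394 and 390 CPM in control against 247, 349 and 208 CPM in the OE-labelled group (log2 fold change -0.56, standard error 0.15, edgeR adjusted p = 0.0174). Pdia3 fell by 0.41 on the log2 scale (standard error 0.11, edgeR adjusted p = 0.0171). The calls of B2m and Pdia3 were lost with the GC offset and when any control library was left out (edgeR adjusted p up to 0.173 and 0.109), and that of Pdia3 also without OE-labelled replicate 2. Nlrc5, the transcriptional activator of these genes, was at 0 in every library.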

How the data were processed

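The deposited values are estimated counts per gene, not normalized, mostly whole numbers with 3.09% of values above 0 fractional, from libraries made with a QuantSeq 3′ forward kit per the labels' protocols. The submitters' processing notes name STAR, HTSeq, mm10 and GRCm38. Strand setting and molecular identifiers are not given in the sources used here. Columns were matched to samples through the library names in the sample descriptions.

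Counts were rounded and all genes were tested with edgeR 4.0.16 (R 4.3.3; filterByExpr, TMM, quasi-likelihood, Benjamini-Hochberg), without covariates, and proteasome rows were then read out. The standard error is the log2 fold change over the square root of F. Alternatives used DESeq2 1.42.0, limma-voom (limma 3.58.1), other scalings and filters, offsets for GC content and length, the replicate block and single libraries left out. The GC offset with protein-coding genes only was added after the data were seen. Positions, lengths and GC content are from GENCODE M21. Shared 3′ ends were sought with BLAST 2.17.0 in the last 300 bases (at least 95% identity over 75 bases). The fit was tested on simulated data that had the same dispersion in both groups. The spread here was wider in the OE-labelled group, a setting that the simulation does not cover. Detection floors cover counting error only.

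Genes and lists were chosen with earlier results of these data known. Library values are given for genes past the threshold, the catalytic subunits and examples; other genes are given by range and count, and each list by up to 5 genes with the smallest p. Some listed genes are not reported here.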

Additional observations from a re-analysis of the deposited data

How the results depend on the processing

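The counts were 12 proteasome genes past the threshold, 11 higher and 1 lower (27.3% of the 44, against 29.2% of all tested genes). The count of lower genes was 2 under each GC offset fit (plain, joined to the replicate block, or on protein-coding genes) and 2 under the exonic length offset, where Psme1 joined Psme4. Leaving out single libraries gave 10 to 18 genes past the threshold, 9 to 14 higher and 1 to 4 lower. That was 22.7% to 40.9% of the 44, against 15.9% to 32.6% of all genes tested in those fits. With DESeq2, 10 passed (22.7%, against 19.6% of all genes). At an edgeR adjusted p below 0.01, 10 passed, of which 9 were higher (background 8.83% higher). Of the 12 genes, 10 passed in all 19 alternatives; the exceptions were Psmd7 and Psmg3, and 0 of the 12 changed sign. Of the 32 genes not past the threshold, 12 passed in at least 1 alternative and 15 changed sign in at least 1. Psmb10 became -0.00168 with the GC offset on protein-coding genes only, and Psmd5 lay between -0.46 and 0.15 on leaving out 1 library, positive only without OE-labelled replicate 1. In the fit that blocks on replicate number, all 12 genes passed, 11 higher and 1 lower (27.3%, against 29.1% of all genes). Of the 14 genes past the threshold outside the symbol rule whose alternatives were tabulated, Zfand5 was lost in that fit. The numbers were not taken to pair the libraries, since nothing in the labels says that equal numbers share a culture. Deviations of equally numbered libraries correlated at 0.1, 0.02 and 0.07, and those of unequally numbered libraries at -0.11 to 0.04. With n = 3 per group these values cannot decide whether the libraries are paired. At this depth the immunoproteasome genes Psmb8 and Psmb9 were too low to compare.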
